A study of Homo sapiens with 2 samples.

Results

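The 37 interferon-stimulated genes described here were chosen by symbol from well-known members of the interferon response, and all 37 were found among the 36601 genes of the count tables. They were measured by single-cell RNA sequencing in RWPE1, an immortalized line of human prostate epithelium, and in RWPE-ERG-mAKT, the same line carrying the transcription factor ERG and myristoylated AKT (mAKT). ERG is an ETS family factor that is aberrantly expressed in many prostate cancers, and the myristoyl anchor holds AKT at the membrane, where it stays active. The study introduced both genes by retrovirus with drug selection, ERG from the HNRNPA2B1 promoter. The submitters gave RWPE1 the genotype of a vector only control, whereas the study's text calls the cells parental. No interferon treatment is given for either condition, so the values below are read as those of cells in ordinary culture.

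Type I and type III interferons bind receptors that activate the kinases JAK1 and TYK2, which phosphorylate STAT2. With IRF9, STAT2 forms part of a complex that binds the interferon-stimulated response element (ISRE) and switches on genes that block viral entry, translation, replication and release. Some of these genes are kept at a low, constant level in resting cells, which is called tonic expression. Others are nearly silent until a cell senses foreign nucleic acid or receives interferon, and then make many transcripts in that cell. Production of interferon itself is known to be limited to a small part of the cells even in an infected culture.

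There was 1 library for each condition, so no test between conditions was possible, and all 95% intervals below cover counting error only. Cells with over 2500 detected genes and under 7.5% mitochondrial molecules were read. They numbered 9967 in RWPE1, with 192789925 unique molecular identifiers (UMIs, each a captured RNA molecule), and 14140 in RWPE-ERG-mAKT, with 225121037 UMIs. The typical RWPE1 cell had 16972 UMIs and the typical RWPE-ERG-mAKT cell 13601 (medians), with mitochondrial shares of 5.44% and 2.73%. Levels are given as UMIs scaled to a library total of 1000000 (CPM), which compare a gene between libraries and do not rank one gene against another. The libraries shared 55 barcodes, and leaving them out changed none of the counts of members below. ERG stood at 1.44 and 20.8 CPM. All 7 epithelial markers were detected in both libraries. The 13 immune cell markers summed to 11.02 and 15.1 CPM, mostly from CD68 (8.73 and 13.4 CPM), while NKG7 and LILRA4 were at 0 in both libraries and PTPRC was at 0.913 and 0.0400 CPM. Their part in the values below was not tested, and neither was that of free RNA in the droplets.

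Promoters of the members carried the letters of the response element far more often than promoters at large. The core GAAANNGAAA was searched on both strands from 250 bases before to 50 bases after the transcription start in RefSeq (GRCh38.p14), where 29 of the 37 members had an entry. It was present in 19 of the 29 (65.5%), against 1255 of 35116 promoters of all genes (3.57%). The 250 bases upstream of 4 members are shown because their expression took 4 different forms, described below. IFIT3 (chr10:89327747-89327996) was concentrated in rare cells of both lines, and IFITM3 (chr11:320861-321110) was spread over nearly all cells of both. IFI44L (chr1:78620198-78620447) was rare in RWPE1 and seen in many more cells of RWPE-ERG-mAKT, and BST2 (chr19:17405631-17405880) the reverse. IFIT3 and IFI44L lie on the plus strand and the others on the minus strand, and each is printed in the direction of its transcription. Capitals mark the ISRE core on either strand, and the 2 cores of BST2 overlap.
IFIT3: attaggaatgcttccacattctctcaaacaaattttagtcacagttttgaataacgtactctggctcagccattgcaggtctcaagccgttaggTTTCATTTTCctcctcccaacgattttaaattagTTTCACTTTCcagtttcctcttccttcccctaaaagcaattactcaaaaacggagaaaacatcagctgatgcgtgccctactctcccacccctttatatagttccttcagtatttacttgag
IFITM3: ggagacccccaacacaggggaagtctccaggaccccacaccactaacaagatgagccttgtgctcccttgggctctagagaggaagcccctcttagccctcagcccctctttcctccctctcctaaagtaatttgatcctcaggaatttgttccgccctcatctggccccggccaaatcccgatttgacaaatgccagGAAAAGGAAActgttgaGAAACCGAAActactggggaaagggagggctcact
IFI44L: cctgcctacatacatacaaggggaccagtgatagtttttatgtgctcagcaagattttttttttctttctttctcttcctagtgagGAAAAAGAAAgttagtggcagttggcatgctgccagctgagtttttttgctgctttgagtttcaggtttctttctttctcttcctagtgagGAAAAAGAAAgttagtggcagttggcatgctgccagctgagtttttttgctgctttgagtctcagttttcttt
BST2: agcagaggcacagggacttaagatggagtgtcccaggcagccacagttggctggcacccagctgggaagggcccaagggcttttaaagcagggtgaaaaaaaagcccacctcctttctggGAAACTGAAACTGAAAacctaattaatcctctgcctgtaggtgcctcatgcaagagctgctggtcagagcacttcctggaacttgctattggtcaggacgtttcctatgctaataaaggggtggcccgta
Each of the 4 stretches holds 2 cores, so these 4 cannot show whether presence of the core goes with a form of expression. Among members that were bursting in RWPE1 by the measure explained below, 11 of 14 with an entry held the core, and among tonic members 5 of 9. By the classes of RWPE-ERG-mAKT these were 12 of 16 and 7 of 12, and the difference was not tested.

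Most members were at a higher level in RWPE-ERG-mAKT, and a few were much lower. With 1 CPM added to both libraries, 14 of the 37 were over 2-fold higher, against 4.49% of the 24757 genes with at least 10 UMIs, and 3 were over 2-fold lower, against 7.09%. On a log2 scale the median ratio, taken as the ERG and mAKT line over RWPE1, was 0.77 over the members and -0.05 over all genes. Beyond counting error, 24 members were higher, 9 were lower, and the intervals of 4 (IFI35, MX2, XAF1 and RSAD2) held 0. These intervals were not counted over all genes, so the 24 and 9 do not set the members apart from other genes. Scaling by the median of ratios raised every log2 ratio by 0.19 and took IFIT5 and MX2 from below to above 0, with the other 35 members keeping their direction. In the shallow barcodes of 200 to 2500 genes, which the study's own limits keep, 7 of those 14 and 2 of those 3 were no longer over 2-fold. That set held 362 RWPE1 barcodes with 872882 UMIs in all, so its values rest on few molecules. In cells with 7.5% or more mitochondrial UMIs (1575 and 107), 5 of the 14 and 1 of the 3 were no longer over 2-fold, and CXCL10 had no value. Ratios in those 2 sets are given below with 1 CPM added. Other single-gene ratios are given without added CPM, and a pair of values always gives RWPE1 first and RWPE-ERG-mAKT after it.

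**Figure D1:**
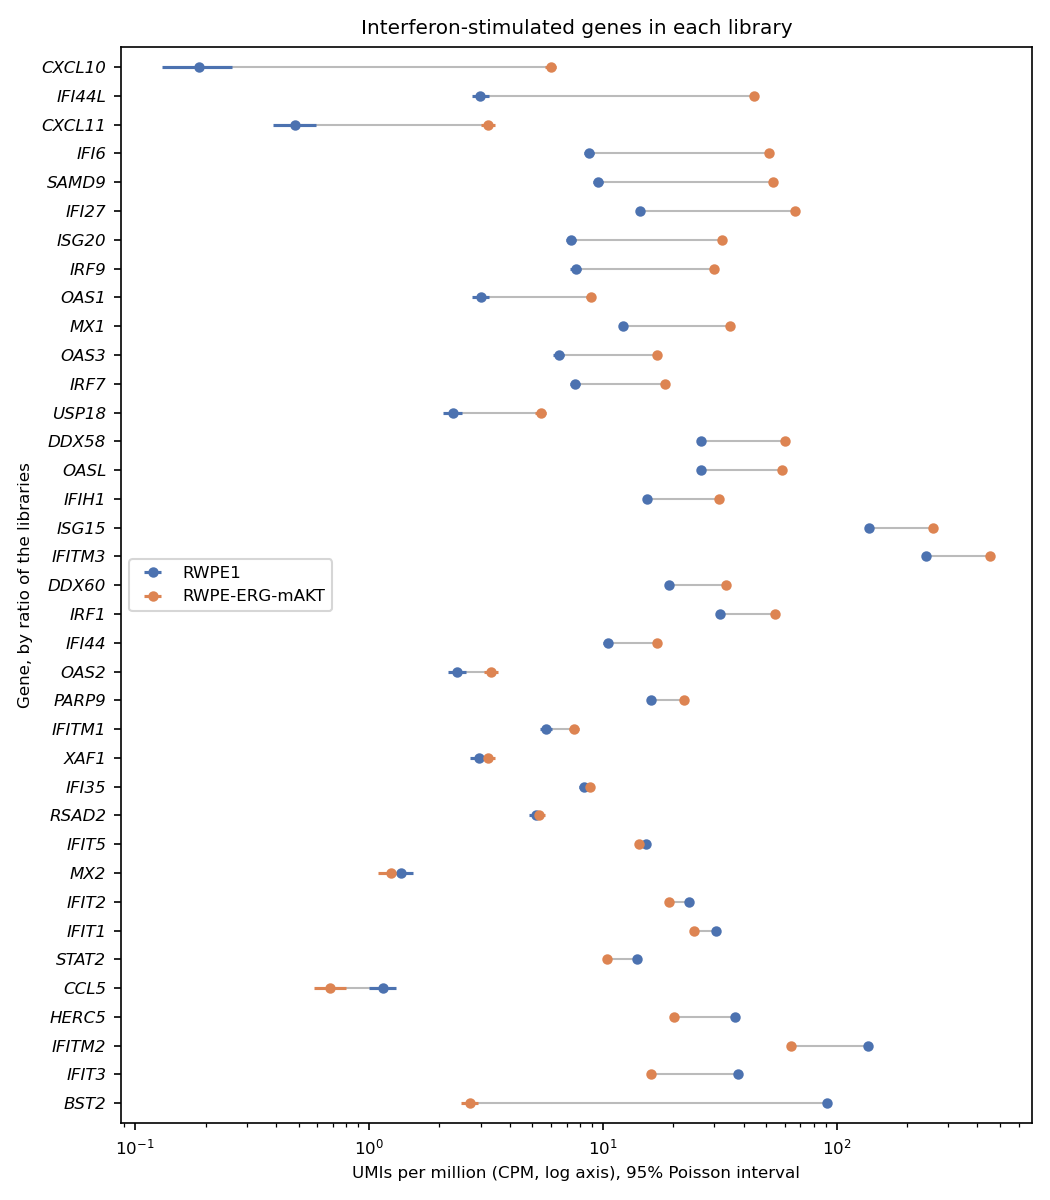
Level of each of the 37 interferon-stimulated genes in RWPE1 (blue) and RWPE-ERG-mAKT (orange) as CPM on a log axis, with 95% Poisson intervals, ordered by the ratio of the libraries. CXCL10 (0.187 and 5.98 CPM) and IFI44L (2.998 and 44.1 CPM) differ most upward, BST2 (90.6 and 2.70 CPM) most downward, and RSAD2 (5.16 and 5.36 CPM) hardly at all.

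Among the membrane proteins that stop viruses at entry or release, members differed in opposite directions. BST2, or tetherin, which ties budding virus to the cell surface (chr19:17402939-17405648, minus strand, GRCh38), stood at 90.6 and 2.70 CPM. Its log2 ratio was -5.07 (-5.19 to -4.95), or 33.6-fold lower, the largest decrease among the 37 members. BST2 molecules were seen in 7061 RWPE1 cells (70.8%) but in 343 RWPE-ERG-mAKT cells (2.43%). In the other RWPE-ERG-mAKT cells no BST2 molecule was captured, which does not show that they made none. With every cell thinned to 5000 UMIs, the share of cells with BST2 was 33.8% (32.9 to 34.7) and 0.998% (0.840 to 1.18).

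IFITM3, which hinders fusion of virus with endosomes (chr11:319669-327537, minus strand), was by contrast seen in nearly every cell, in 96.0% of RWPE1 and 96.8% of RWPE-ERG-mAKT cells. It stood at 241 and 453 CPM, a log2 ratio of 0.91 (0.89 to 0.92). Its neighbour IFITM2 was lower, at 137 and 63.6 CPM, with a log2 ratio of -1.10 (-1.13 to -1.07). With 1 CPM added it was at -0.88 in the shallow barcodes and -0.91 under median-of-ratios scaling, within 2-fold in both. IFITM1 stood at 5.73 and 7.53 CPM. The IFITM genes are near copies of each other, and IFITM1 and IFITM2 overlap on the same strand in the annotation, so how reads were split among the 3 is uncertain. At equal depth IFITM2 was seen in 47.9% of RWPE1 cells and 26.7% of RWPE-ERG-mAKT cells, and IFITM3 in 67.9% and 83.3%.

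The 4 IFIT genes, whose proteins bind foreign RNA and hinder its translation, were all lower in RWPE-ERG-mAKT in total, though IFIT5 was not under median-of-ratios scaling. They lie side by side on chromosome 10. IFIT3 stood at 37.8 and 16.0 CPM, a log2 ratio of -1.24 (-1.30 to -1.18). IFIT1 stood at 30.6 and 24.6 CPM and IFIT2 at 23.3 and 19.3 CPM, with log2 ratios of -0.32 and -0.27. Those 2 ratios rested on few cells. Outside each gene's own top 1% of cells IFIT1 and IFIT2 were higher in RWPE-ERG-mAKT, with log2 ratios of 0.16 and 0.35, while IFIT3 kept -1.23. IFIT3 was at -0.18 in the shallow barcodes, where IFIT2 was higher at 0.75, and at -0.65 in cells rich in mitochondrial UMIs. IFIT5 stood at 15.4 and 14.3 CPM. All but IFIT5 overlap LIPA on the opposite strand.

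Genes for sensors of viral RNA were higher in RWPE-ERG-mAKT. DDX58, which encodes RIG-I, stood at 26.4 and 60.0 CPM, a log2 ratio of 1.18 (1.14 to 1.23). Cells with a DDX58 molecule made up 7.61% and 22.2% at equal depth, so the gene was seen in many more cells. IFIH1, which encodes the sensor MDA5, stood at 15.5 and 31.3 CPM, and DDX60, a helicase known as a partner of RIG-I, at 19.2 and 33.5 CPM.

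Genes of the ISG15 system, a ubiquitin-like modifier with its own ligase and protease, differed in direction. ISG15 stood at 137 and 258 CPM, a log2 ratio of 0.91 (0.89 to 0.93). HERC5, the main ligase that attaches ISG15, was lower, at 36.7 and 20.3 CPM, with a log2 ratio of -0.86 (-0.91 to -0.80). USP18, which removes ISG15 and also damps signalling at the interferon receptor, stood at 2.28 and 5.42 CPM. The ligase was thus the single gene of the 3 that was lower, and outside its top 1% of cells its log2 ratio was -0.17, and in the shallow barcodes it was 0.07.

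Among genes for enzymes that act against viral RNA, the oligoadenylate synthetases and MX1 were higher. OAS1 and OAS3, which make the activator of RNase L, stood at 3.01 and 8.88 CPM and at 6.47 and 17.1 CPM. OASL, a relative that binds RIG-I, stood at 26.4 and 58.1 CPM, a log2 ratio of 1.14 (1.09 to 1.19). OAS2 differed least of the family, at 2.38 and 3.33 CPM. The GTPase gene MX1, whose protein blocks incoming viral nucleocapsids, was at 12.2 and 35.0 CPM with a log2 ratio of 1.52 (1.46 to 1.59). Its relative MX2 was rare, with 263 UMIs in 112 RWPE1 cells and 279 UMIs in 220 RWPE-ERG-mAKT cells. RSAD2, which encodes viperin, was at 5.16 and 5.36 CPM. The exonuclease gene ISG20 was higher, at 7.32 and 32.3 CPM, a log2 ratio of 2.14 (2.06 to 2.22). In the shallow barcodes MX1, OAS1 and OAS3 were at log2 ratios of 0.08, 0.06 and 0.25 and OAS2 was lower at -1.09. In cells rich in mitochondrial UMIs OASL was at 0.02, ISG20 at 0.65 and OAS1 at 0.72.

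Among the remaining induced genes, IFI44L, IFI6, IFI27 and SAMD9 were much higher in RWPE-ERG-mAKT. IFI44L (chr1:78619922-78646145, plus strand) stood at 2.998 and 44.1 CPM, a log2 ratio of 3.88 (3.76 to 4.004). It was seen in 1.67% and 18.8% of cells at equal depth. Its neighbour IFI44 differed far less, at 10.5 and 17.1 CPM with a log2 ratio of 0.70 (0.62 to 0.78). IFI6, a mitochondrial or endoplasmic reticulum protein that opposes cell death, stood at 8.73 and 51.6 CPM, a log2 ratio of 2.56 (2.49 to 2.64). IFI27, a relative of IFI6, stood at 14.4 and 66.2 CPM, a log2 ratio of 2.20 (2.14 to 2.26). In the shallow barcodes IFI27 was lower instead, at a log2 ratio of -1.40, as was IFI44 at -0.48, and IFI6 was at 0.29. SAMD9, a restriction factor for poxviruses, stood at 9.55 and 53.5 CPM, a log2 ratio of 2.49 (2.41 to 2.56). IFI35, XAF1 and PARP9 differed little, with log2 ratios of 0.08, 0.13 and 0.47.

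Genes for the transcription factors of the response were uneven. IRF9, the DNA-binding part of the complex that reads the ISRE, stood at 7.65 and 30.0 CPM, a log2 ratio of 1.97 (1.89 to 2.05). Its partner STAT2 was lower, at 14.0 and 10.4 CPM, with a log2 ratio of -0.42 (-0.50 to -0.34). IRF7, which drives the production of interferon alpha, was at 7.59 and 18.5 CPM, a log2 ratio of 1.28 (1.20 to 1.37). IRF1, a target of both interferon and NF-kB, was at 31.7 and 54.4 CPM. In the shallow barcodes IRF9, IRF7 and STAT2 were at log2 ratios of 0.70, 0.34 and 0.04. In cells rich in mitochondrial UMIs IRF7 was at 0.35 and IRF1 was lower at -0.30.

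Chemokine genes were close to absent from RWPE1. CXCL10 had 36 UMIs in 16 of 9967 RWPE1 cells (0.187 CPM) and 1346 UMIs in 542 of 14140 RWPE-ERG-mAKT cells (5.98 CPM), a log2 ratio of 5.00 (4.52 to 5.52). CXCL11, its neighbour and a ligand of the same receptor, had 93 and 727 UMIs (0.482 and 3.23 CPM), a log2 ratio of 2.74 (2.43 to 3.07), and it was at 0.82 in cells rich in mitochondrial UMIs. Both overlap ART3 on the opposite strand. CCL5 had 221 and 154 UMIs, and 1 RWPE1 cell held 29.4% of that library's CCL5.

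To tell tonic from bursting genes, the share of each gene's UMIs held by its top 1% of cells (100 and 142 cells) was set against the share that Poisson counting at the same depths would give. A gene was called bursting where the share was at least 2 times that expectation and at least 10%, tonic where it was under 1.5 times it or under 10%, and too sparse where the expectation itself was above 40%. In RWPE1, 17 of the 34 members that could be classed were bursting, against 1.89% of all classed genes, 12 were tonic, against 94.9%, and 5 fell in between. In RWPE-ERG-mAKT, 18 of 35 were bursting, against 2.01%, 15 were tonic, against 95.3%, and 2 fell in between. The 2 classes were thus of similar size among the members, while nearly all other genes were tonic.

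**Figure D2:**
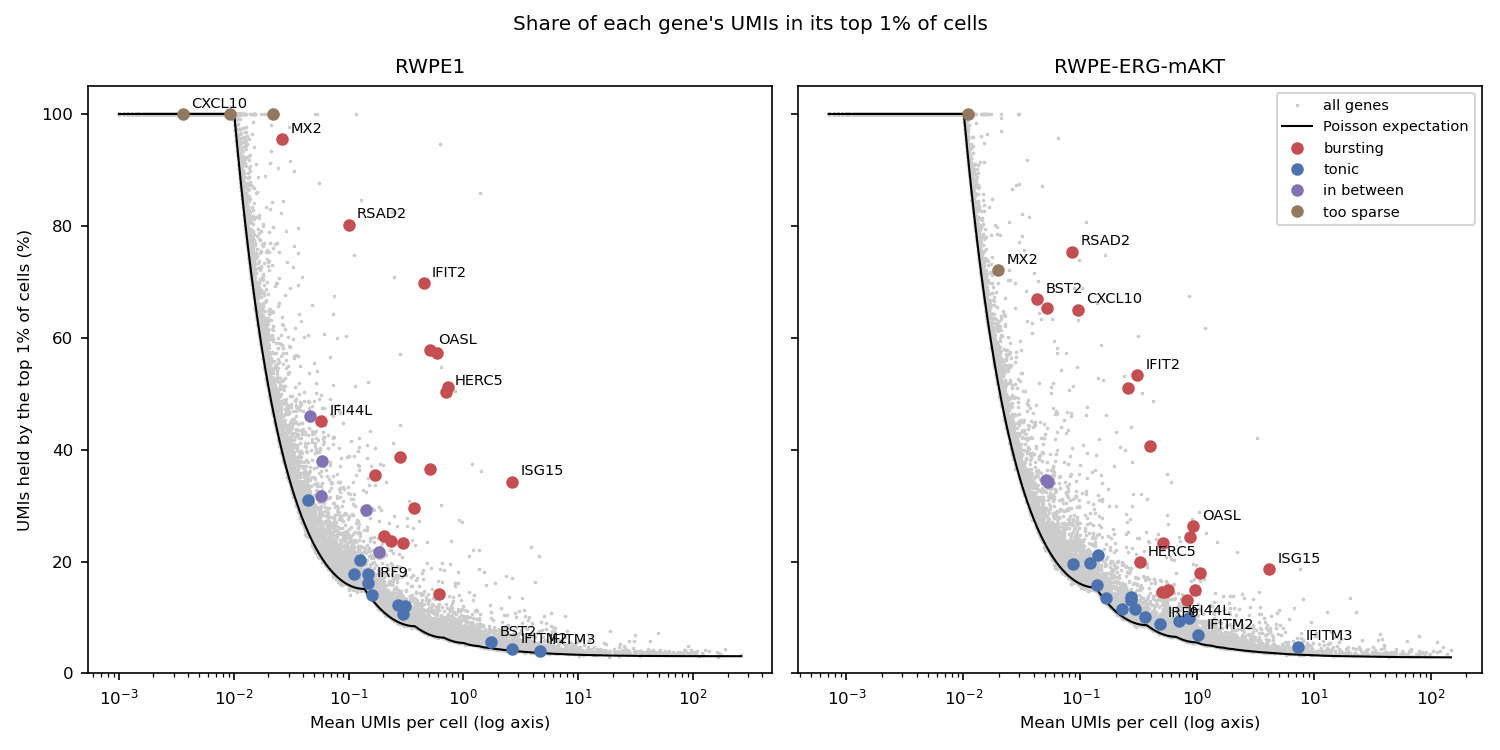
Share of each gene's UMIs held by the top 1% of cells (y axis, %) against its mean UMIs per cell (x axis, log), in RWPE1 (left) and RWPE-ERG-mAKT (right). Grey points are all genes with at least 10 UMIs in that library, the line is the Poisson expectation and coloured points are the members by class. ISG15 (34.3% and 18.7%) and IFIT2 (69.8% and 53.3%) lie far above the line and IFITM3 (4.08% and 4.80%) close to it.

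Bursting in both libraries and in all 10 other settings were IFIT1, IFIT2, IFIT3, ISG15, OASL and IFI27. IFIT2 had 69.8% of its RWPE1 molecules in 100 cells, against an expectation of 7.41%, and 53.3% of its RWPE-ERG-mAKT molecules in 142 cells, against 8.86%. IFIT1 had 57.2% and 40.6%, and IFIT3 had 51.2% and 51.1%. A member could also be present in many cells and still be concentrated in a few. ISG15 was seen in 47.3% of RWPE1 cells and 77.3% of RWPE-ERG-mAKT cells, and its top 1% held 34.3% and 18.7%, with up to 387 and 766 molecules in a single cell.

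By raw share, RSAD2 ranked after MX2 among members that could be classed in RWPE1, with 80.2% in the top 1%. It ranked first in RWPE-ERG-mAKT, with 75.4%. A raw share rises as a gene gets sparser, and the expectations for RSAD2 were 15.8% and 16.9%. Its shares were 5.07 and 4.46 times the expectation, against 9.41 and 6.02 times for IFIT2. The share of MX2 in RWPE1 was 2.41 times its expectation. OASL had 57.8% in RWPE1 and 26.3% in RWPE-ERG-mAKT, HERC5 50.4% and 19.8%, and DDX58 36.6% and 14.9%. These 3 were less concentrated in RWPE-ERG-mAKT, where OASL was seen in 16.7% of cells at equal depth against 4.18% in RWPE1. IFI6, IFI27, IFIH1, MX1, IRF1 and DDX60 completed the 14 members that were bursting in both libraries, with shares of 14.2% to 38.7% in RWPE1 and 13.1% to 24.4% in RWPE-ERG-mAKT. IRF1 was the one of these 6 that was more concentrated in RWPE-ERG-mAKT, at 14.2% and 24.4%. Several of these lay near the limits. In RWPE1 IRF1 was bursting in 3 of 10 other settings, and in RWPE-ERG-mAKT IFIH1 and MX1 were in 4, DDX60 in 5 and IFI6 in 6.

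Tonic in both libraries were 11 members, among them 2 IFITM genes with many molecules per cell and most of the signalling factors: IFIT5, IFI35, IFITM1, IFITM2, IFITM3, OAS3, STAT2, IRF7, IRF9, PARP9 and USP18. Their top 1% shares were 1.07 to 1.39 times the Poisson expectation in RWPE1 and 1.05 to 1.43 times in RWPE-ERG-mAKT. IFITM2 lay closest to a plain spread over cells in RWPE1 among the members with over 1 UMI per cell, with 4.35% of its molecules in the top 1% against an expectation of 4.04%. Over the 33 members classed in both libraries, the ratio of share to expectation was lower in RWPE-ERG-mAKT for 23, against 58.9% of all genes, with medians of 1.99 and 1.73.

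Among members whose class differed between the lines, IFI44L and BST2 differed in opposite directions. In RWPE1, 45.2% of IFI44L molecules lay in the top 1% of cells, against an expectation of 20.7%. In RWPE-ERG-mAKT the share was 9.32%, against 6.26%, and the gene was seen in 41.2% of all cells. IFI44L was thus more concentrated where it was low, at 2.18 times the expectation, than where it was high, at 1.49 times. Its bursting class in RWPE1 lay near the limit and was kept in 5 of 10 other settings. Its tonic class in RWPE-ERG-mAKT lay just under the limit of 1.5 times but was kept in all 10. IFI44 differed in the same direction, with 24.6% and 13.7%, or 2.25 and 1.48 times the expectation. Its bursting class in RWPE1 was also kept in 5 of 10 other settings.

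BST2 was spread in RWPE1, where its top 1% held 5.64% against an expectation of 4.496%, a tonic class kept in all 10 other settings. In RWPE-ERG-mAKT the top 1% held 66.9% of its 607 molecules, against 26.0%, a bursting class kept in 6 of 10 other settings and too sparse in 3. The 127 RWPE-ERG-mAKT cells with 2 or more BST2 molecules had 58 ERG UMIs together, or 22.1 CPM (16.8 to 28.6), too few to show ERG in each cell. The 13797 cells with no BST2 molecule had ERG at 20.8 CPM. None of the 127 carried a barcode of the RWPE1 library. Only 42 of all 14140 RWPE-ERG-mAKT cells did, so their absence among 127 cells says nothing about where those cells came from. The same 127 cells had IFI27 at 169.9 CPM and IFITM2 at 119 CPM, against 62.8 and 62.4 CPM in the cells without BST2, while IFI44L was at 40.8 and 44.2 CPM. They were also deeper, with a median of 19708 UMIs against 13503. This look at BST2 cells was chosen after its values were seen, and the part of depth in it was not tested.

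The others were less marked. ISG20 went from in between in RWPE1 (29.2%) to bursting in RWPE-ERG-mAKT (23.2%), which has a lower expectation. OAS1 and SAMD9 went from in between to tonic. SAMD9 had 21.8% and 9.84%, which were 1.86 and 1.73 times the expectation, so it became tonic only by falling under 10%. CXCL10 and CXCL11 were too sparse in RWPE1 and bursting in RWPE-ERG-mAKT (65.0% and 65.3%), MX2 was bursting in RWPE1 and too sparse in RWPE-ERG-mAKT, and CCL5 was too sparse in both. OAS2 and XAF1 stayed in between.

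**Figure D3:**
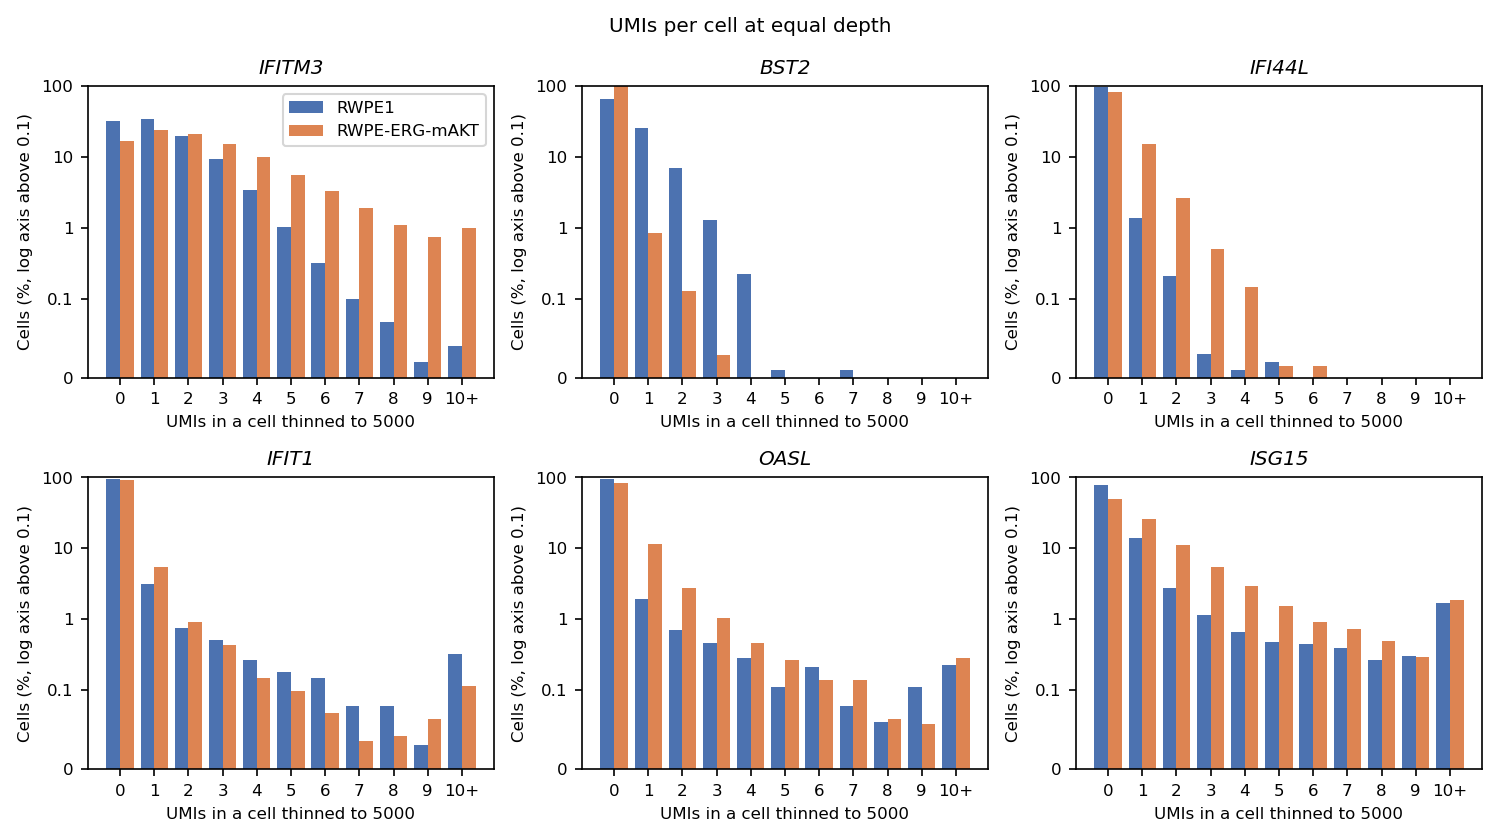
UMIs per cell of 6 members after every cell was thinned to 5000 UMIs, as a percentage of cells (y axis, log above 0.1%) in RWPE1 (blue) and RWPE-ERG-mAKT (orange), with 10 or more UMIs in the last bar. IFITM3 forms a hump in both libraries, BST2 beyond 0 is nearly confined to RWPE1 and IFI44L to RWPE-ERG-mAKT, and IFIT1, OASL and ISG15 have long tails, with 0.321% and 0.113% of cells at 10 or more IFIT1 molecules.

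Coexpression was read as the correlation of log values per 10000 UMIs across the cells of a library, which share the library and its range of depth. In RWPE1 (9967 cells), the 136 pairs of bursting genes had a median Pearson r of 0.29, the 66 pairs of tonic genes 0.04 and the mixed pairs 0.10. In RWPE-ERG-mAKT (14140 cells), the same pairs had medians of 0.20, 0.06 and 0.09. For comparison, pairs of all genes with at least 0.05 UMIs per cell had medians of 0.0044 and 0.0053 and a 99th percentile of 0.085 and 0.082. By the classes of RWPE-ERG-mAKT itself, medians there were 0.18 for bursting and 0.08 for tonic pairs. The bursting medians lay above the 99th percentile of all pairs in both libraries, and the tonic medians lay above the median of all pairs and below that percentile. Where classes were read in their own library, they had been set by spread across the same cells. Tonic genes by the class rule vary little beyond counting noise, which limits their r. The lower tonic medians thus partly follow from the class. Nearly all genes are tonic, and pairs of bursting genes outside the members were not read for comparison. Without IFIT-high cells the bursting medians, each by the library's own classes, fell to 0.15 and 0.12, and by Spearman's rank correlation they were 0.17 and 0.12.

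Within the bursting genes of RWPE1 there was a tight core and a looser group. IFIT2 and IFIT3 had an r of 0.81, IFIT1 and IFIT3 0.80, and OASL and HERC5 0.80. HERC5 and ISG15 (0.69), DDX58 and IFIT3 (0.67) and DDX60 and OASL (0.60) belonged to the same block. The looser group was made of IFI6, IFI27, MX1, MX2 and IFI44L, joined by OAS1, which was in between by class. There IFI6 and IFI27 had an r of 0.45, IFI6 and MX2 0.45, and OAS1 and MX2 0.42. IFI27 had its closest partners in that group, and its median r with all other members was 0.11.

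In RWPE-ERG-mAKT the core was looser, and closest partners were kept for some of its genes and differed for others. IFIT1 and IFIT3 still led, at 0.54, and IFIT2 and IFIT3 had 0.51, but OASL and HERC5 had 0.28. Closest to ISG15 were OASL (0.46), which also led in RWPE1, and IFI6 (0.44, against 0.29 in RWPE1). ISG15 thus joined both groups. IFITM3 and IFITM2 had an r of 0.29, against 0.13 in RWPE1. CXCL10 and CXCL11 were each other's closest partner in both libraries, with 0.48 in RWPE1, where CXCL10 was seen in 16 cells, and 0.42 in RWPE-ERG-mAKT. The next closest partner of CXCL10 reached 0.14 and 0.19, whereas CXCL11 also had OASL (0.34) and HERC5 (0.33) of the core as partners in RWPE1.

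**Figure D4:**
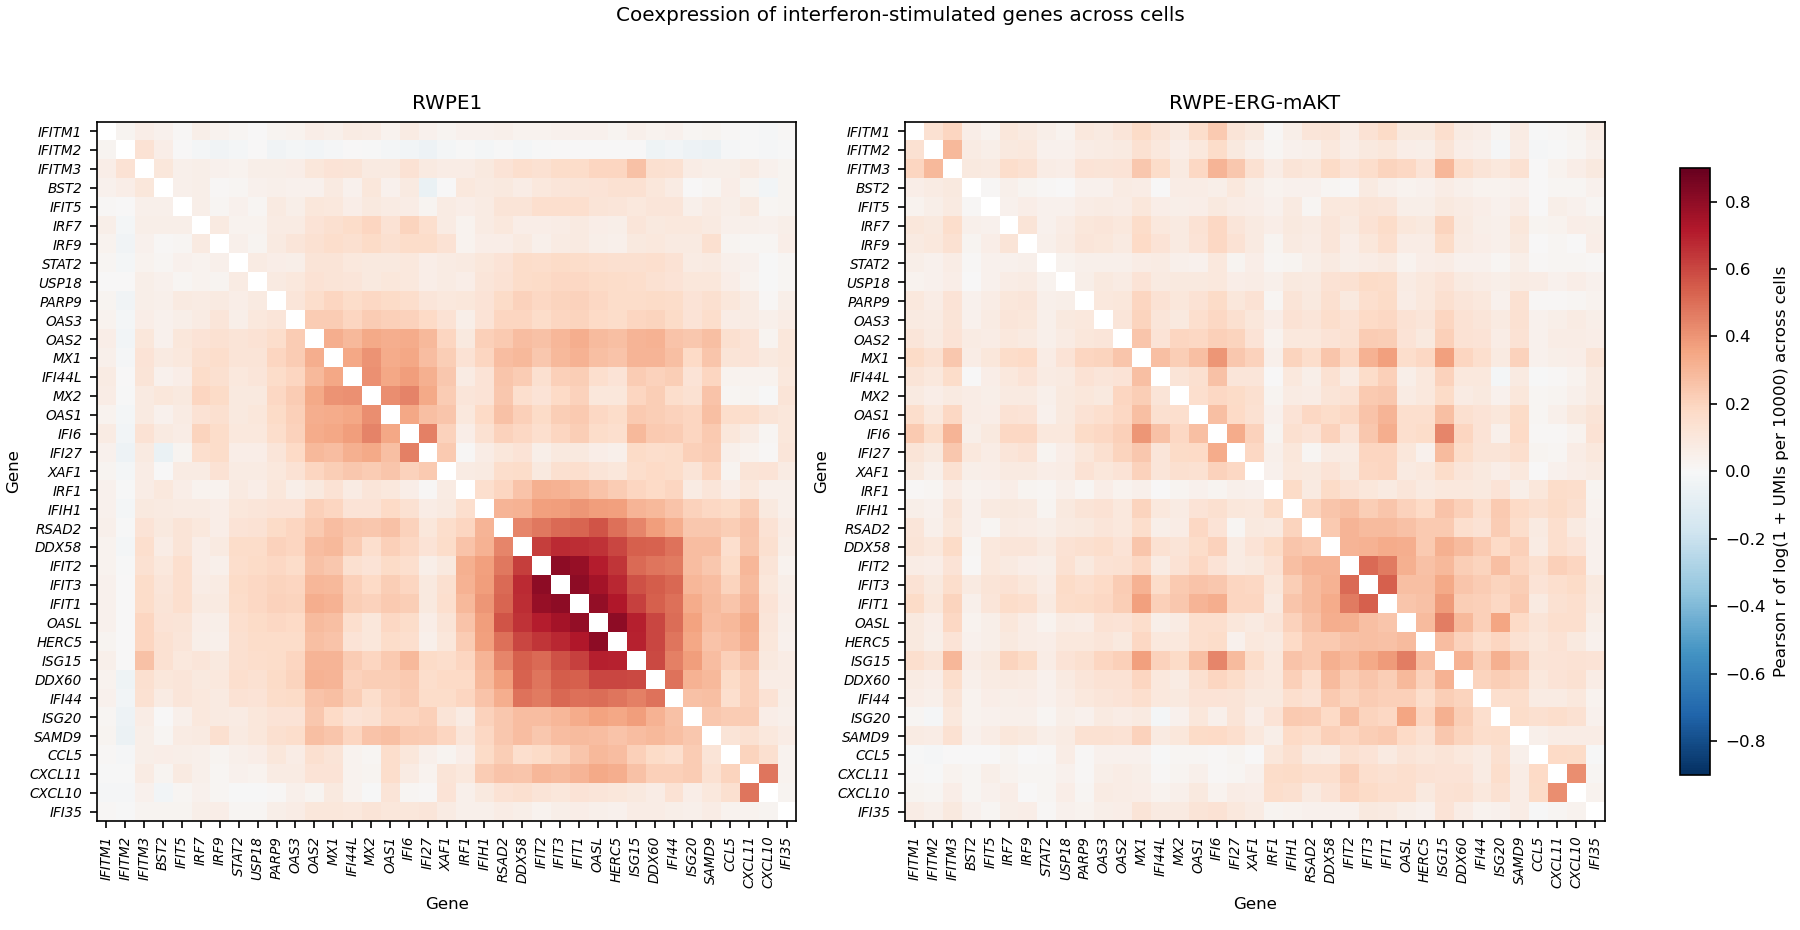
Pearson r of log(1 + UMIs per 10000) between all pairs of the 37 members across 9967 RWPE1 cells (left) and 14140 RWPE-ERG-mAKT cells (right), with the genes in the same order in both and the diagonal left blank. The dark block in RWPE1 spans DDX58, the IFIT genes, OASL, HERC5, ISG15, DDX60 and IFI44, with r up to 0.81, a paler block spans OAS2 to IFI27, and in RWPE-ERG-mAKT the highest r is 0.54.

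Cells rich in the IFIT genes of the core were few. Cells with at least 10 UMIs over IFIT1, IFIT2 and IFIT3 together, named IFIT-high, numbered 289 of 9967 in RWPE1 and 230 of 14140 in RWPE-ERG-mAKT. They were somewhat deeper than the other cells (medians of 19049 against 16919.5 UMIs in RWPE1 and 16564.5 against 13565 in RWPE-ERG-mAKT) with a like mitochondrial share (5.21% against 5.45% and 2.63% against 2.73%). At an equal depth of 5000 UMIs, 217 of 9967 RWPE1 cells (2.18%, exact binomial interval 1.90 to 2.48) and 164 of 14134 RWPE-ERG-mAKT cells (1.16%, 0.9903 to 1.35) had 5 or more IFIT molecules. The ratio of the shares was 0.533 (0.432 to 0.656), and it lay below 1 at every threshold and depth tried in the deep cells, from 0.379 to 0.783.

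The IFIT-high cells carried much more of the other members too. Of the 34 members beside those 3 genes, 18 were over 4-fold higher in IFIT-high cells than in other cells of both libraries, against 0.347% of all genes. Taken alone, RWPE1 had 23 such members (against 0.753%) and RWPE-ERG-mAKT 18 (against 0.431%). Median folds were 6.82 and 4.22 for the members and 0.988 and 0.989 for all genes. A median of 16 of the 34 was detected in an IFIT-high RWPE1 cell, against 6 in other cells, and 18 against 8 in RWPE-ERG-mAKT. ERG had folds of 1.20 (0.594 to 2.19) and 0.955 (0.763 to 1.18) in them, with intervals that held 1.

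Members differed in how far they were tied to these cells, and more so in RWPE1. IFIT-high cells held 3.31% of all UMIs of RWPE1 and 1.92% of RWPE-ERG-mAKT. They held 77.3% of the OASL of RWPE1 but 13.8% in RWPE-ERG-mAKT. HERC5 was alike, at 62.1% and 13.7%, and so was DDX58, at 52.1% and 11.6%. For OASL, DDX58 and HERC5 the remaining cells had more in RWPE-ERG-mAKT. Outside IFIT-high cells OASL was at 6.19 and 51.1 CPM, and HERC5 differed far less, at 14.4 and 17.8 CPM. RSAD2 (77.0% and 42.1%) and CCL5 (67.4% and 50.6%) stayed tied to these cells in both lines. IFITM2 lay close to the share of all RNA in RWPE1, at 3.49%, and held 2.89% in RWPE-ERG-mAKT, with folds in IFIT-high over other cells of 1.06 (0.987 to 1.13) and 1.52 (1.37 to 1.68). BST2 (5.23% and 5.93%) had folds of 1.61 (1.51 to 1.72) and 3.22 (2.23 to 4.51).

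**Figure D5:**
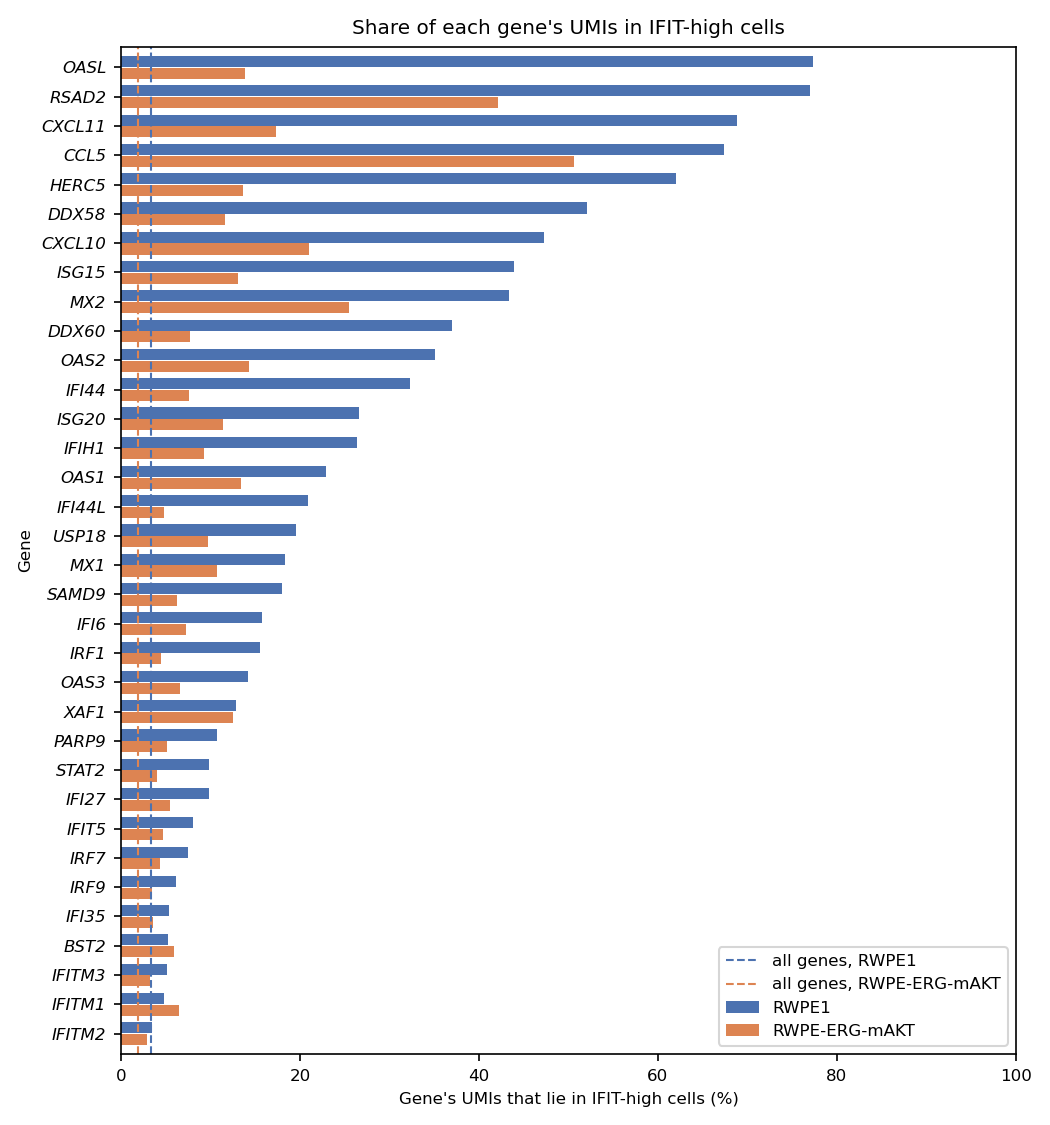
Share of each member's UMIs that lay in IFIT-high cells (x axis, %) in RWPE1 (blue bars) and RWPE-ERG-mAKT (orange bars), for the 34 members beside IFIT1, IFIT2 and IFIT3, which define these cells. Dashed lines mark the share of all UMIs held by the same cells (3.31% and 1.92%). OASL, RSAD2, CXCL11 and CCL5 lead in RWPE1, and IFITM2 (3.49%) lies near the RWPE1 line.

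The rest of the pathway, read from 11 further lists of 135 genes, gave the setting. Of the 15 interferon genes, 4 had at least 10 UMIs over both libraries. IFNE, an interferon of epithelia, had 156 and 44 UMIs (0.809 and 0.195 CPM), a log2 ratio of -2.05 (-2.57 to -1.56), and IFNK, an interferon of keratinocytes, had 68 and 550 UMIs (0.353 and 2.44 CPM), a log2 ratio of 2.79 (2.43 to 3.18). IFIT-high cells held 5 and 1 of the IFNE molecules and 5 and 7 of the IFNK molecules. IFNL1 had 31 UMIs in RWPE1, 28 of them in IFIT-high cells, and 11 in RWPE-ERG-mAKT, 8 of them in IFIT-high cells, and IFNB1 had 3 and 7 UMIs in all. A molecule of either was found in 21 RWPE1 cells, of which 18 were IFIT-high, and in 13 RWPE-ERG-mAKT cells, of which 6 were. IFNL1 was thus seen mostly in IFIT-high cells, which held 3.31% and 1.92% of all UMIs. Folds of IFIT-high over other cells were 0.968 and 1.19 for IFNE and 2.32 and 0.658 for IFNK, with wide intervals that held 1.

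Of the 9 receptor and kinase genes, IFNGR1, which binds interferon gamma, was higher in RWPE-ERG-mAKT (24.6 and 81.2 CPM) and its partner IFNGR2 was lower (40.3 and 19.3 CPM). The genes of the type I and III receptors were within 2-fold, with IFNAR1 at 20.9 and 26.1 CPM and IFNLR1 at 10.0 and 9.27 CPM. Of 15 sensor and adaptor genes 3 were over 2-fold higher, against 4.49% of all genes, and 1 was lower, against 7.09%. Among the higher was IFI16, a sensor of DNA (40.6 and 108 CPM), and the lower was STING1 (11.6 and 2.18 CPM). No transcription factor of the list with at least 20 CPM in either library passed 2-fold, with IRF2 at 32.8 and 32.9 CPM.

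Other interferon-induced genes, 38 in number, differed less between the libraries than the members, with a median log2 ratio of 0.25 against 0.77. Of these, 3 were over 2-fold higher (GBP1, PLSCR1 and CH25H), against 4.49% of all genes. Another 3 were over 2-fold lower (TNFSF10, LGALS3BP and IFI30), against 7.09%. GBP1, a guanylate-binding protein, stood at 2.59 and 20.6 CPM, and LGALS3BP, a secreted glycoprotein, at 89.6 and 20.8 CPM. Of 34 with enough UMIs, 6 were over 4-fold higher in IFIT-high cells of both libraries, against 0.347% of all genes: GBP4, SAMD9L, CMPK2, DDX60L, TNFSF10 and RTP4. CMPK2, the neighbour of RSAD2 on the opposite strand, was 25.4-fold and 15.3-fold higher there. CH25H, which makes an oxidized cholesterol that blocks viral fusion, lay mostly in IFIT-high cells in RWPE1 but not in RWPE-ERG-mAKT, where those cells held 1.92% of all UMIs. It had 61 UMIs in RWPE1, 57 of them in IFIT-high cells, and 3407 UMIs in RWPE-ERG-mAKT, 82 of them in IFIT-high cells. CH25H is named here after its values were seen.

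NF-kB targets were higher in RWPE-ERG-mAKT as a list, with a median log2 ratio of 1.57. Of the 13, 7 were over 2-fold higher, against 4.49% of all genes, and none was over 2-fold lower, against 7.09%. TNFAIP3, a brake on NF-kB, stood at 1.87 and 37.1 CPM, and NFKBIA, which encodes an inhibitor of NF-kB, at 35.1 and 121 CPM. The list was not tied to IFIT-high cells, with median folds of 1.34 and 1.47 and no gene over 4-fold in both libraries. The negative regulators SOCS1 and SOCS3 were also over 2-fold higher in RWPE-ERG-mAKT, at 0.991 and 3.89 CPM and at 0.560 and 2.86 CPM. In the stress list, ATF3 was higher (13.7 and 70.4 CPM), and so was PPP1R15A, while TRIB3 was lower (52.0 and 16.9 CPM).

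Outside all lists, the 10 genes most like the IFIT genes were those with the highest ratio of IFIT-high to other cells, taken as the lower of the 2 libraries' ratios among 10219 genes. They were AC133644.2, PLAAT4, C15orf48, IGFL1, HCAR2, RAET1L, PMAIP1, PRR15, APOL3 and PLAUR, with ratios from 16.4 down to 3.51. PLAAT4, a phospholipase-like gene, had 53.3 CPM in IFIT-high and 2.69 CPM in other RWPE1 cells, and 30.7 and 2.72 CPM in those of the other line. PMAIP1, which encodes the cell death protein NOXA, had 84.8 and 10.2 CPM in the same groups of RWPE1 cells and 103.3 and 21.6 CPM in those of RWPE-ERG-mAKT.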

How the data were processed

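Single-cell RNA of RWPE1 and RWPE-ERG-mAKT was captured with a 10x Genomics Chromium 3' kit from an input of 10000 cells, 1 library per condition. Per the labels the reads were mapped to hg38 and quantified by Cell Ranger 7.1.0. The values deposited by the authors are raw UMI counts per gene and barcode, with no scaling. Whether the counting used strand is not given in the sources used here.

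The study's methods name 200 to 2500 genes per cell as limits. They word the mitochondrial limit as filtering out cells under 7.5%, which was read here as removing those at 7.5% or more. So read, the limits would keep 362 of 12504 and 2775 of 17355 barcodes. Cells with over 2500 genes and under 7.5% mitochondrial UMIs were therefore used, and the study's limits were an alternative. Doublets were not called, and leaving out cells with over 7500 genes stood in for it. UMIs were summed per library, with exact Poisson intervals for CPM, conditional binomial intervals for ratios and exact binomial intervals for shares. Cells were thinned without replacement to 5000 UMIs, and 6 shallower RWPE-ERG-mAKT cells were left out. Expected top 1% shares came from Poisson counts at the cells' depths, and this step was tested on simulated data. Of 36601 identifiers, 34616 (94.6%) were matched to GENCODE release 29 (GRCh38) for coordinates, and promoters came from RefSeq, where DDX58 was matched as RIGI. STING1 is TMEM173 in the files. Software was numpy 2.4.6, pandas 2.3.3, scipy 1.17.1 and matplotlib 3.10.9 under Python 3.11.15.

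Members over 2-fold, bursting or tonic were named, and from the other lists genes over 2-fold at 20 CPM or over 4-fold in IFIT-high cells of both libraries, up to 6 a list, with a few of lower level added after their values were seen. The members and lists were chosen with earlier results of these data known. Intervals do not cover differences between cultures.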

Additional observations from a re-analysis of the deposited data

Results flagged for a closer look

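In the barcodes of 200 to 2500 genes, outside the cells read above for most values, 13 members were over 2-fold higher in RWPE-ERG-mAKT and 5 over 2-fold lower with 1 CPM added, among them BST2 at a log2 ratio of -4.72. Of the 13, 2 were over 2-fold higher beyond counting error, a signal in data outside the main measurement. IFI44L had 8 UMIs in RWPE1 against 399 UMIs (log2 ratio 2.05, 1.06 to 3.27). ISG20 had 14 UMIs in RWPE1 against 643 UMIs (log2 ratio 1.93, 1.17 to 2.81). Both were higher in RWPE-ERG-mAKT among the deeper cells too. RWPE1 has only 362 such cells. The share of all genes past 2-fold was not counted in these barcodes. The counts of 13 and 5 members therefore have no background to be read against.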

How the results depend on the processing

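No paired analysis was possible because each condition is 1 library, and no replicate could be left out. In the cells of 200 to 2500 genes the median log2 ratio of the members was 0.34, 5 members were over 2-fold lower, 9 bursting members and a median r of 0.21 within bursting genes were found in RWPE1, the log2 ratio of the IFIT shares at 1000 UMIs was -0.10, and IFI27 reversed to -1.40. The median log2 ratio was 0.41 in cells with 7.5% or more mitochondrial UMIs, 0.95 under median-of-ratios scaling and 0.89 without each gene's top 1% of cells. Bursting members numbered 11 and 10 after thinning to 5000 UMIs, and 10 and 10 from 3 times the expectation. No tonic member became bursting in any of the 10 settings, though those that only moved the bursting limit could not have made it so. Bursting in all 10 were 6 of 17 and 9 of 18 bursting members. The median r within bursting genes was 0.17 and 0.12 by Spearman, 0.19 and 0.12 after thinning, and 0.15 and 0.12 without IFIT-high cells. The log2 ratio of the IFIT shares, -0.91, was -0.35 from 3 UMIs, -1.24 from 10 UMIs, -1.40 at a depth of 2000 and -0.36 at 10000. The causes were not tested. Leaving out shared barcodes, chosen after seeing the data, moved none of these. Direction differed from that reported for 9 members in the cells of 200 to 2500 genes (IFIT2, IFI27, IFI35, IFI44, OAS2, STAT2, CCL5, XAF1 and HERC5), for 4 in cells rich in mitochondrial UMIs, for 3 without the top 1% of cells, for 2 under median-of-ratios scaling and for 1 with cells weighted equally, and for none under the other alternatives. Members with few UMIs, such as CXCL10 in RWPE1, are limited by depth.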
